A study of Homo sapiens with 12 samples.

Results

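The genes described here encode Fc and complement receptors, which let white blood cells detect antibodies and activated complement. The 10 genes FCAR, FCER2, FCER1G, FCGR1A, FCGR2A, FCGR2B, FCGRT, CR1, C3AR1 and C5AR1 were taken by symbol from an expression table of 20030 genes, and each of the 10 was found. Poly(A) RNA was sequenced from THP-1 and MOLM-13, human acute myeloid leukemia cell lines of monocytic character that both carry a rearranged MLL (KMT2A) gene. Each line was incubated for 48 h with DMSO as control or with Jiyuan oridonin A (JOA), a kaurene diterpenoid that the study tested for its ability to make leukemia cells differentiate. The 4 groups were MOLM-13 with DMSO, MOLM-13 with 0.5 µM JOA, THP-1 with DMSO and THP-1 with 2 µM JOA, with 3 libraries in each. A figure legend of the study gives a longer incubation than its methods and the sample records do. Dose and cell line differ together, so their effects on the response cannot be told apart, and cultured lines show neither primary blast cells nor normal monocytes.

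The Fc gamma receptors bind IgG on immune complexes. FCGR1A (CD64) is the high-affinity receptor, FCGR2A (CD32A) is an activating receptor of low affinity, and FCGR2B (CD32B) is the inhibitory receptor. FCER1G encodes the common gamma chain, a small signalling subunit on which FCGR1A and the IgA receptor FCAR (CD89) depend. FCER2 (CD23) is the low-affinity IgE receptor, and FCGRT is the heavy chain of the neonatal Fc receptor, which salvages IgG from degradation. CR1 (CD35) binds C3b and C4b, while C3AR1 and C5AR1 are G protein-coupled receptors for the anaphylatoxins C3a and C5a. Several of these genes are acquired or increased as myeloid precursors mature.

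On the RefSeq annotation of GRCh38.p14, 4 members lie on chromosome 19: FCER2 at chr19:7688776-7702131, C5AR1 at chr19:47307477-47322066, FCGRT at chr19:49512661-49526428 and FCAR at chr19:54874235-54891420. Another 5 lie on chromosome 1, namely FCGR1A at chr1:149782694-149800609, FCER1G at chr1:161215295-161219245, FCGR2A at chr1:161505457-161524048, FCGR2B at chr1:161647243-161678654 and CR1 at chr1:207496157-207641765. C3AR1 lies at chr12:8056844-8066359. Of the 10 members, 9 matched the RefSeq promoter table by symbol, with 11 start sites. The promoters shown are those that bear on the activating IgG receptors FCGR1A and FCGR2A, of which FCGR1A had JOA values apart from control in THP-1 cells and FCGR2A had not, and on FCER2, which passed a test there. Each run covers the 250 bases before a start site, 5′ to 3′ on the gene's strand. Capitals mark a match to TTCNNNGAA, the palindrome bound by STAT factors, and a stretch of 20 bases that the promoters of FCGR1A and FCGR2A share.
FCGR1A, chr1:149782444-149782693, plus strand: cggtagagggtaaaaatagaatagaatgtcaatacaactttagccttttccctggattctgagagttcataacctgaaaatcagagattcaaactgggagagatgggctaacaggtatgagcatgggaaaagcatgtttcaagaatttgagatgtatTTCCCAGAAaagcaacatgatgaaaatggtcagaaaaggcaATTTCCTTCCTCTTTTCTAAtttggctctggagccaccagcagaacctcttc
FCGR2A, chr1:161505207-161505456, plus strand: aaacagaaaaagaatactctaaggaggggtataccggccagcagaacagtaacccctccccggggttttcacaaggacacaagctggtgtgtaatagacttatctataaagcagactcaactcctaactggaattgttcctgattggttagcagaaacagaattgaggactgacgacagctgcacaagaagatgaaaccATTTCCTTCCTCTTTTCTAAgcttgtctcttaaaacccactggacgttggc
FCER2, second start site, chr19:7699442-7699691, minus strand: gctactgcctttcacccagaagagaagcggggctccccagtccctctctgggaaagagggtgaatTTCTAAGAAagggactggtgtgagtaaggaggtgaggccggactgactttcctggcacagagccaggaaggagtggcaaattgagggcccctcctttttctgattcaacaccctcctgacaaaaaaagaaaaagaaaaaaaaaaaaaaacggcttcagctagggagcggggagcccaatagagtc

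The shared stretch starts 52 bases before the start of FCGR1A and 51 bases before that of FCGR2A, and these 2 were the only windows that held it among 35116. It contains TTCCTC, the reverse complement of GAGGAA, a core bound by PU.1 and other ETS factors. GAGGAA was searched on both strands and occurred in 23.6% of all windows and in 4 of the 11 windows of the receptors, those of FCGR1A, FCGR2A, FCGR2B and C5AR1. The STAT palindrome starts 93 bases before FCGR1A and 185 bases before the second start of FCER2. It was held by 6.57% of all windows and by 3 of the 11, the third being a window of FCGR2B. TGANTCA, the AP-1 site, was held by 6.57% of all windows and by 4 of the 11, in FCGR2B, C3AR1 and FCER2. TGACNNNGC, the core of the antioxidant response element, was held by 10.9% of all windows and by that of CR1 alone among the 11. These are matches of letters, no binding was measured, and which start site each cell line used is not known from the values per gene. For FCGR2B and C5AR1, the first bases after the start sites were not found in any transcript of the gene in a second annotation, GENCODE.

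Levels are given as FPKM, fragments scaled to transcript length and to the mapped fragments of the library, which can be compared between genes because of the scaling by length. The total depth of the libraries is unknown. Depth relative to control replicate 1 of the same line, read from the steps between low values, ranged from 0.867 to 1.00 in MOLM-13 and from 0.932 to 1.07 in THP-1. No replicates were duplicates, with correlations between libraries of a line of 0.987 to 0.995 across genes. The records do not say that replicates came from separate cultures, so p-values measure the spread between these libraries, which may be technical. Of 10 monocytic and myeloid markers, 9 had a mean of at least 1 FPKM in every group, and CD14 was the exception at 0.144 to 0.645. In bulk RNA, a change in the share of cells that express a gene and a change in the RNA per cell cannot be told apart.

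The untreated lines were compared first, to show the receptors that each line carried before JOA. THP-1 cells had more of the gamma chain, of both activating Fc gamma receptors and of the neonatal receptor than MOLM-13 cells, and less of the inhibitory FCGR2B. Of 9 members tested, 4 were higher and 1 was lower in THP-1 by limma, where a call needed an adjusted p under 0.05 and a log2 fold change of 0.58 or more in either direction. The same threshold was passed by 44.0% of 12635 genes, 25.0% being higher and 19.0% lower, and the libraries of the lines did not overlap for 5 of the 9 members and 74.8% of genes. The median log2 difference was 0.60 over the 9 members, or 0.63 without FCGR2B, and 0.059 over all genes tested. CR1 was below the filter on low values, a mean of 0.1 FPKM over the libraries compared, and FCGR2B passed it only through its level in MOLM-13.

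FCER1G showed the largest fitted difference of the set. Its FPKM values were 125, 120 and 106 in the THP-1 controls and 8.38, 9.91 and 5.45 in the MOLM-13 controls. Each THP-1 library was therefore far above each MOLM-13 library, by 14.8-fold in the means, with a log2 difference of 3.91 ± 0.19 (SE) and an adjusted p of 6.81e-07 by limma. In THP-1 controls 97.6% of genes above 0 had a lower mean than FCER1G, against 64.9% in MOLM-13 controls.

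The receptors that signal through the gamma chain differed much less between the lines. FCGR1A stood at 16.0, 17.1 and 17.6 FPKM in THP-1 controls and at 10.3, 10.8 and 10.4 in MOLM-13 controls. The groups did not overlap, and the log2 difference of 0.68 ± 0.06 (SE) had an adjusted p of 2.67e-05 by limma. For the IgA receptor FCAR, the values were 0.701, 1.10 and 1.14 in THP-1 and 0.736, 0.655 and 0.919 in MOLM-13. These overlapped, and the log2 difference of 0.30 had a 95% interval from -0.17 to 0.76 (adjusted p = 0.215 by limma). FCER1G was listed far above FCGR1A in each THP-1 control, whereas FCGR1A was the higher of the pair in each of the 3 MOLM-13 controls.

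FCGR2A was listed at 12.5, 11.3 and 10.5 FPKM in THP-1 controls and at 6.66, 7.88 and 8.04 in MOLM-13 controls. All THP-1 values were higher, by 1.52-fold in the means, with a log2 difference of 0.60 ± 0.10 (SE) and an adjusted p of 0.000682 by limma. This sits just above the fold threshold, and the difference was 0.52 without MOLM-13 control 1 and 0.54 without THP-1 control 1. FCGR2B had the opposite order, with 0.0210, 0.0196 and 0.0443 FPKM in THP-1 and 0.142, 0.536 and 0.365 in MOLM-13. The MOLM-13 mean was 12.3-fold higher, and the fitted log2 difference of -1.70 ± 0.34 (SE) had an adjusted p of 0.00204 by limma. With a pseudocount of 1 in place of 0.1 it was -0.38, short of the fold threshold. The genes FCGR2A, FCGR2B and FCGR2C are near-identical in part, as are FCGR1A and FCGR1B, so reads may have been split between them in a way that is not stated.

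FCGRT, which many tissues express, reached 17.8, 22.8 and 29.5 FPKM in THP-1 controls and 12.4, 15.1 and 14.6 in MOLM-13 controls. The groups did not overlap, and the log2 difference was 0.70 ± 0.17 (SE, adjusted p = 0.00556 by limma). It was 0.52 without THP-1 control 3, under the fold threshold. FCER2 overlapped between the lines, with 1.54, 3.21 and 3.32 FPKM in THP-1 and 1.39, 3.54 and 2.52 in MOLM-13. In both lines the control labelled replicate 1 had the lowest FCER2 value.

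The complement receptors were all near or below 1 FPKM. CR1 was at 0.0804, 0.0756 and 0.118 FPKM in THP-1 controls and at 0.0113, 0.00823 and 0.0127 in MOLM-13 controls, 8.51-fold apart in the means without overlap. Below the filter it was tested in a fit over all genes with a value above 0, where its log2 difference was 0.78 (adjusted p = 0.000648 by limma). C3AR1 overlapped at 0.749, 0.612 and 1.03 in THP-1 and 0.771, 0.997 and 0.889 in MOLM-13, and its log2 difference of -0.15 had an interval from -0.59 to 0.28. C5AR1 was at 0.306, 0.320 and 0.623 in THP-1 and spread from 0.0364 through 0.187 to 0.694 in MOLM-13. MOLM-13 control 2 was the highest of these 6 C5AR1 values. The log2 difference was 0.66 (95% interval -0.65 to 1.98, adjusted p = 0.323 by limma), and without that library it was 1.33 and passed the threshold.

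**Figure D1:**
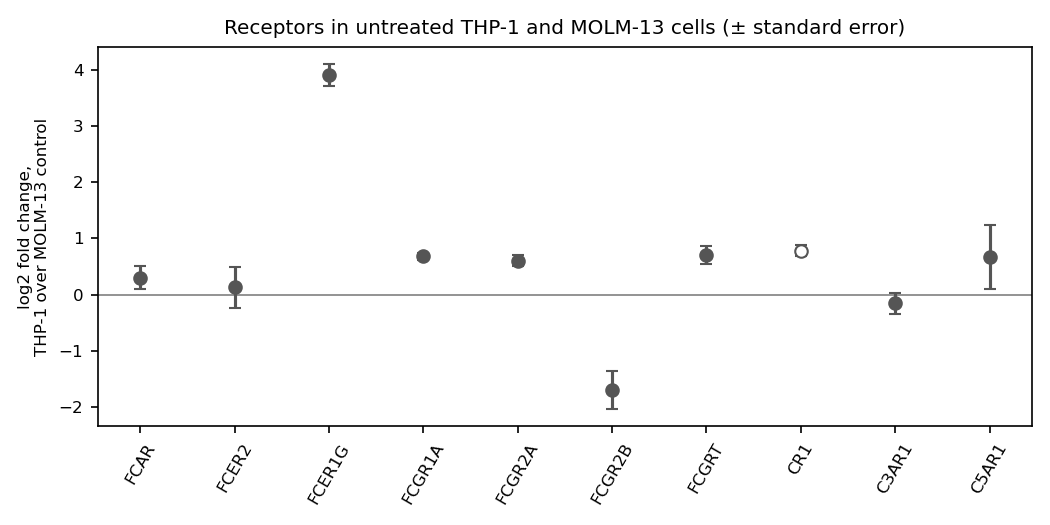
Log2 fold change of each receptor between the untreated lines (vertical axis, log2 of FPKM + 0.1, THP-1 control over MOLM-13 control, n = 3 and 3), with bars of 1 standard error. The open circle is CR1, which was fitted without the filter on low values; FCER1G lies at 3.91 and FCGR2B at -1.70.

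JOA was then compared with control in THP-1 cells, at 2 µM. FCER2, FCAR, FCER1G and FCGR1A had higher FPKM values in each JOA library than in any control, with ratios of means of 1.76, 1.70, 1.19 and 1.17. CR1 and C5AR1 had ratios of 2.43 and 1.63 with overlapping groups, and FCGR2A, FCGRT and C3AR1 stayed between 0.962 and 1.11. None of the 9 members tested was called without a replicate term, while 0.134% of 12712 genes were, and 5 of the 9 had an unadjusted p under 0.05 by limma against 16.9% of all genes. CR1, 1 of these 5, passed the filter only through its JOA libraries, and without it there were 4 of 8. Control and JOA libraries of the same number deviated together, and in a fit with replicate number as a block FCER2 was called, 1 of 9 members against 1.27% of all genes. At an adjusted p under 0.05 whatever the fold, the blocked fit had 3 members, FCER2, FCER1G and FCGR1A, against 8.06% of all genes. The study, which used DESeq, reported FCER2 and CR1 as up-regulated in THP-1 cells and FCAR among the altered genes. In the fits on FPKM, CR1 and FCAR were not called with or without the block.

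Without overlap and higher in JOA were 4 of the 9 members, against 14.6% of all genes, and 8 of the 9 had a log2 fold change above 0, or 7 of 8 without CR1, against 56.7%. The median log2 fold change was 0.25 over the 9 members, 0.24 without CR1 and 0.023 over all genes tested. The members include FCER2, CR1 and FCAR, which the study reported as up-regulated or altered in these same THP-1 libraries. The shares and medians of the members in THP-1 are therefore not independent of that report. FCGR2B was below the filter in THP-1.

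The IgE receptor FCER2 had the largest log2 fold change of the members tested. Its control values were 1.54, 3.21 and 3.32 FPKM, and its JOA values 4.07, 5.14 and 5.04. All 3 JOA libraries exceeded the highest control, and replicate 1 was the lowest library in both groups. The log2 fold change was 0.86 ± 0.27 (SE), and its adjusted p by limma was 0.166. In the blocked fit the SE was 0.142 and the adjusted p 0.0194. Pair by pair, the log2 difference was 1.34, 0.66 and 0.59. The value leans on THP-1 control 1, without which it was 0.52. In a blocked fit over every gene with a value above 0, an alternative chosen after the data were seen, the adjusted p was 0.0978.

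The gamma chain FCER1G was at 125, 120 and 106 FPKM in control and 154, 127 and 137 with JOA. The log2 fold change of 0.25 came with an adjusted p of 0.0438 with the block and 0.206 without it by limma. FCGR1A, which needs this chain at the cell surface, was at 16.0, 17.1 and 17.6 in control and 19.3, 19.1 and 21.0 with JOA. Its 3 pairs differed by 0.27, 0.15 and 0.26 on the log2 scale, and the log2 fold change of 0.23 had an adjusted p of 0.0309 with the block and 0.132 without it by limma. For both genes the groups did not overlap, and both differences were below the fold threshold. Neither passed in the blocked fit without the filter, where the adjusted p was 0.133 for FCER1G and 0.0861 for FCGR1A by limma.

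FCAR, the other receptor that pairs with the gamma chain, was at 0.701, 1.10 and 1.14 FPKM in control and 2.17, 1.42 and 1.42 with JOA. JOA replicate 1 held the highest value and control replicate 1 the lowest, so that the first pair differed by 1.50 and the others by 0.34 and 0.29 on the log2 scale. The log2 fold change of 0.71 (95% interval 0.20 to 1.22) had an adjusted p of 0.168, and 0.105 with the block, by limma. FCGR2A, whose promoter shares the stretch of 20 bases with FCGR1A, was at 12.5, 11.3 and 10.5 in control and 13.3, 12.2 and 9.47 in JOA. The control values lay within the range of the JOA values, with a log2 fold change of 0.015 and an interval from -0.28 to 0.31. FCGRT went from 17.8, 22.8 and 29.5 to 22.6, 24.7 and 30.8, where each JOA value was above the control of its own number but the groups overlapped (log2 fold change 0.17, adjusted p = 0.124 with the block by limma). FCGR2B stayed at 0.0112 to 0.0338 with JOA, near its control values.

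Among the complement receptors, CR1 stood at 0.295, 0.0995 and 0.270 FPKM with JOA against 0.0804, 0.0756 and 0.118 in control. JOA replicate 2 lay within the control range and the other two above it. The log2 fold change of 0.69 had an interval from 0.01 to 1.38 and an adjusted p of 0.291, or 0.142 with the block, by limma. C5AR1 was at 0.464, 0.655 and 0.912 against 0.306, 0.320 and 0.623. It was higher in each of the 3 pairs, by 0.48, 0.85 and 0.48 on the log2 scale, and the adjusted p was 0.0550 with the block and 0.342 without it by limma. C3AR1 was at 0.489, 0.527 and 1.29 against 0.749, 0.612 and 1.03, with replicate 3 the highest of each group and pairs of both signs. The 2 anaphylatoxin receptors thus differed in the sign of their log2 fold change, 0.60 for C5AR1 and -0.14 for C3AR1, though neither was called.

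**Figure D2:**
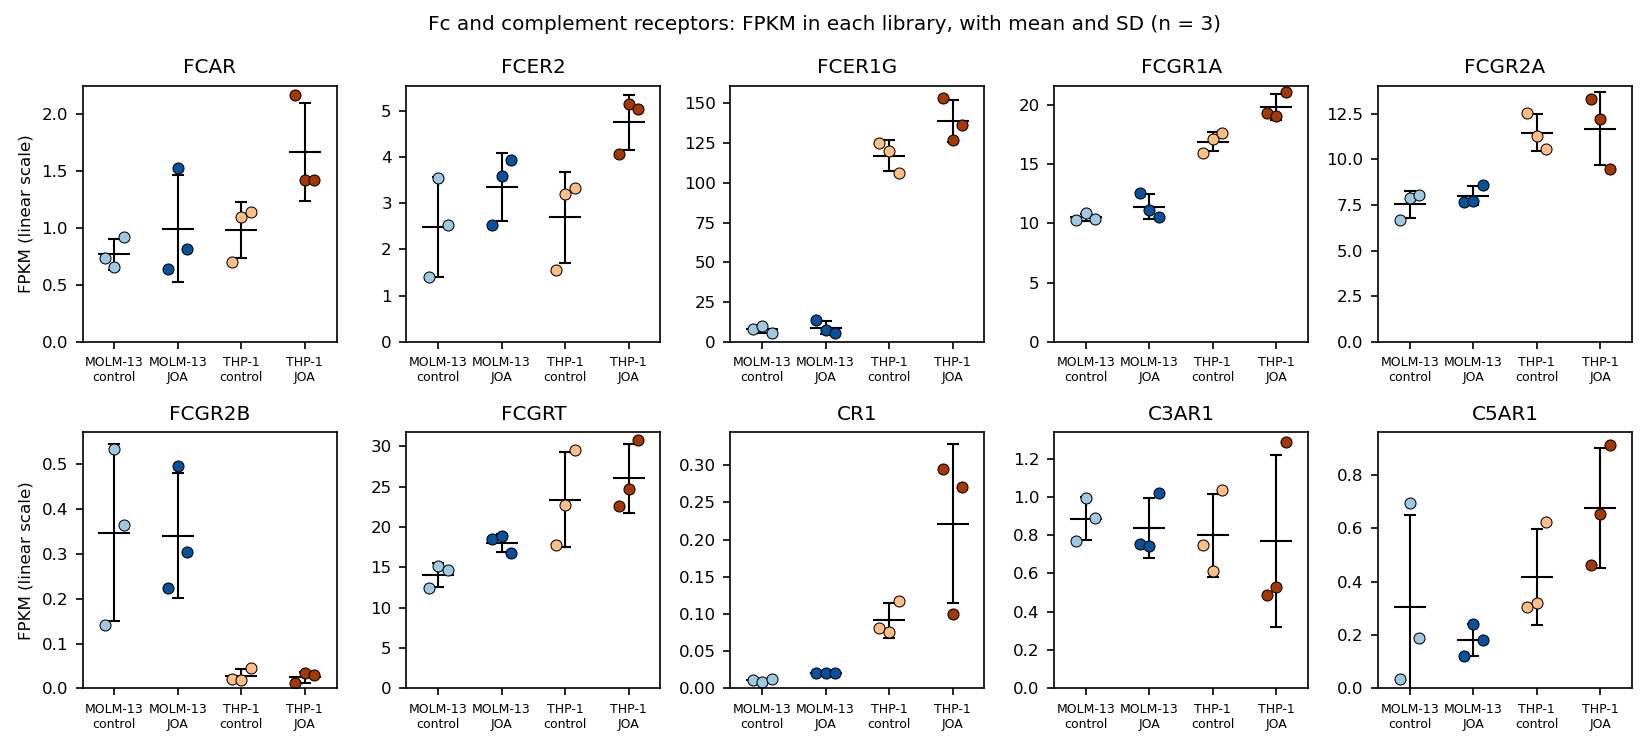
FPKM of each receptor in every library (vertical axis, linear, a separate scale per gene), by cell line and treatment, with the mean and SD of 3 libraries. In THP-1 cells the JOA points of FCAR, FCER2, FCER1G and FCGR1A lie above all control points, and FCER1G is above 100 only in THP-1.

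In MOLM-13 cells, at 0.5 µM JOA, FCGRT was the tested receptor with the least overlap, and no receptor passed the test. None of 9 members was called with or without the block, and 0.0% of 11693 genes were. FCGRT, 1 of the 9, had an unadjusted p under 0.05 by limma, against 4.11% of all genes. FCGRT alone of the 9 did not overlap, against 9.65% of all genes, and 7 of the 9 had a log2 fold change above 0, against 52.4%. The median log2 fold change was 0.10 over the members and 0.0055 over all genes.

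FCGRT went from 12.4, 15.1 and 14.6 FPKM to 18.5, 18.9 and 16.7. Each JOA library was above each control, and the pairs differed by 0.58, 0.32 and 0.19 on the log2 scale. The log2 fold change of 0.36 ± 0.09 (SE) had an unadjusted p of 0.00349 and an adjusted p of 1.00, or 0.305 with the block, by limma. FCER2 was at 2.53, 3.60 and 3.93 with JOA against 1.39, 3.54 and 2.52. It was higher in each pair but the groups overlapped, and the log2 fold change of 0.49 had an adjusted p of 0.356 with the block by limma. CR1, below the filter, was listed at 0.0204, 0.0207 and 0.0206 against 0.0113, 0.00823 and 0.0127, which did not overlap. Its log2 fold change without the filter was 0.12 (adjusted p = 0.993 by limma), on a scale that shrinks changes of such low values.

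The gamma chain and its partners had log2 fold changes of 0.10 for FCER1G, 0.11 for FCGR1A and 0.26 for FCAR in MOLM-13, with overlapping groups. FCER1G was at 13.5, 7.57 and 5.44 FPKM with JOA against 8.38, 9.91 and 5.45, so that replicate 1 was higher, replicate 2 lower and replicate 3 level with its control. FCGR1A was at 12.6, 11.1 and 10.5 against 10.3, 10.8 and 10.4, with an interval of the log2 fold change from -0.07 to 0.29. FCAR was at 0.642, 1.53 and 0.812 against 0.736, 0.655 and 0.919, where JOA replicate 2 alone exceeded the controls. FCGR2A (7.67, 7.72 and 8.61 FPKM) and FCGR2B (0.224, 0.496 and 0.304) overlapped their controls, with log2 fold changes of 0.090 and 0.041. C3AR1, at 0.756, 0.741 and 1.02, and C5AR1, at 0.121, 0.243 and 0.181, did so too. For C5AR1 the interval of the log2 fold change, from -1.47 to 1.10, was the widest of the set.

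**Figure D3:**
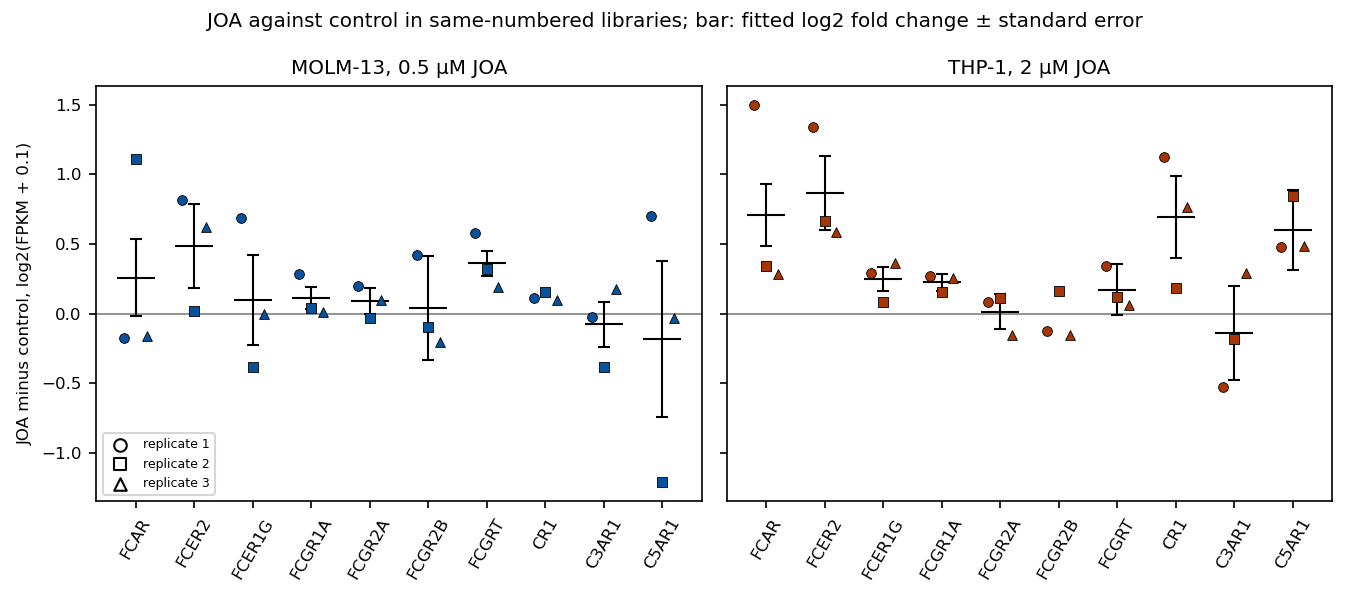
Log2 difference of JOA and control libraries with the same replicate number (points, log2 of FPKM + 0.1) for each receptor, in MOLM-13 at 0.5 µM and THP-1 at 2 µM, with the fitted log2 fold change and 1 standard error as bars. In THP-1 all 3 points are above 0 for FCAR, FCER2, FCER1G, FCGR1A, FCGRT, CR1 and C5AR1, and genes below the filter have points only.

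Whether the response differed between the lines was tested as an interaction over the 12 libraries. None of 9 members passed at an adjusted p under 0.05 by limma, and 0.0% of 12626 genes did. With the block it was again none of the 9, against 0.0475% of all genes. None of the 9 had an unadjusted p under 0.05, against 7.24% of all genes. The largest difference was that of C5AR1, 0.78 on the log2 scale with an interval from -0.75 to 2.32. For FCER2 it was 0.38 (-0.62 to 1.38), for FCAR 0.45 (-0.40 to 1.31) and for FCGR1A 0.11 (-0.10 to 0.33). The call of FCER2 in THP-1 therefore does not show that the lines responded differently.

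The order of the 4 groups differed between members. FCER1G and FCGR1A were highest in THP-1 with JOA, then THP-1 control, then both MOLM-13 groups, and their ranges were apart at each step except between the MOLM-13 groups. FCER2 was highest in THP-1 with JOA, at 4.75 ± 0.591 FPKM (SD, n = 3), apart from the other three groups, which overlapped. FCGR2A had overlapping groups within each line and ranges apart between the lines. FCGRT ranged from 26.0 ± 4.25 in THP-1 with JOA to 14.1 ± 1.47 in MOLM-13 control, and only the MOLM-13 groups were apart from each other among neighbours. FCGR2B had both MOLM-13 groups above both THP-1 groups, and CR1 the reverse, each with ranges apart between the lines. The neighbours in order overlapped throughout for FCAR, C3AR1 and C5AR1.

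Other Fc receptors were looked at as a list of 18 genes, of which 17 were in the table and 5 were listed at 0 in every library. Of these, 4 were tested in THP-1 and 7 in MOLM-13, and none was called in either line with or without the block. FCGR1B, the near copy of FCGR1A, was at 3.74 ± 0.632 FPKM in THP-1 control and 4.55 ± 0.193 with JOA (SD, n = 3; log2 fold change 0.29, adjusted p = 0.277 by limma). TRIM21, an Fc receptor of the cytosol that targets antibody-coated virus, was the highest of the list at 7.75 to 12.6 FPKM. Between the untreated lines, FCGR1B and MS4A2 were higher in THP-1, and FCMR, FCAMR, FCRLB and TRIM21 were lower, by limma at the same threshold. These were all of the 6 tested, where 44.0% of all genes were called. FCMR, FCAMR and MS4A2 passed the filter through 1 line only. FCMR, the receptor for IgM, was at 1.30 FPKM in MOLM-13 control and 0.0355 in THP-1 control, and the IgE receptor chain FCER1A was listed at 0 in THP-1.

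The other complement receptors and regulators were a list of 12 genes, 8 of them tested in THP-1 and 9 in MOLM-13. None was called without the block. With it, ITGAM was called in THP-1, 1 of 8 against 1.27% of all genes, and the call was lost in the blocked fit without the filter. ITGAM (CD11b) is the alpha chain of complement receptor 3 and a marker of myeloid maturation. It was at 3.94 ± 0.982 FPKM in control and 6.39 ± 0.419 with JOA (SD, n = 3), with a log2 fold change of 0.71 and an adjusted p of 0.103, or 0.0348 with the block, by limma. The study measured CD11b on the cell surface and reported ITGAM as up-regulated in its sequencing of THP-1 cells, so ITGAM was not chosen independently of it. ITGAX, the alpha chain of complement receptor 4, had a log2 fold change of 0.71 too, with overlapping groups and an adjusted p of 0.0622 with the block by limma. CD46 and CD59, which protect cells from complement, had an adjusted p of 0.0394 and 0.0340 with the block, at log2 fold changes of 0.19 and 0.48 below the fold threshold. In MOLM-13, ITGAM was at 2.87 ± 0.526 in control and 3.78 ± 0.371 with JOA, without overlap and with an adjusted p of 0.396 with the block by limma.

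Signalling genes were split by receptor class. Of 26 genes downstream of Fc receptors, none was called without the block in either line, and with it 1 was in THP-1, the Src family kinase FGR, at a log2 fold change of 0.68 (adjusted p = 0.554, or 0.0317 with the block, by limma). All genes had a share of 1.27%, and the call of FGR was lost in the blocked fit without the filter. The groups overlapped for FGR, at 1.38 to 6.31 FPKM in control and 3.14 to 7.88 with JOA. The adaptor LAT2 and the kinase SYK, which binds the phosphorylated gamma chain, had blocked adjusted p-values of 0.00804 and 0.0409 at log2 fold changes of 0.36 and 0.20. LAT2 was at 29.8 ± 2.00 FPKM in THP-1 control and 38.3 ± 3.38 with JOA (SD, n = 3), without overlap. In MOLM-13, FGR had a log2 fold change of 0.66 without overlap (adjusted p = 0.397 with the block by limma), so its change was not particular to THP-1. The median of the list was 0.065 in THP-1 and 0.040 in MOLM-13 on the log2 scale. Between the untreated lines 3 of the 26 were higher and 8 lower in THP-1, near the share of 44.0% of all genes, among them FYN (2.16), LYN (-1.91), LAT2 (-1.60) and HVCN1 (-2.00 in log2 difference). LYN and FYN are kinases that phosphorylate the gamma chain. RAC2, ARPC2, GRB2 and CDC42, the highest of the list by mean over the 4 groups, had log2 fold changes with JOA of 0.031 to 0.092 in both lines.

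Of 15 genes for signalling by anaphylatoxin receptors, none was called with JOA in either line with or without the block. RGS18, a regulator of G protein signalling, had a log2 fold change of 0.46 in THP-1 (adjusted p = 0.0209 with the block by limma) and GRK6, a receptor kinase, 0.27 (adjusted p = 0.0219), both under the fold threshold. GRK5 had the largest negative log2 fold change, -0.48, with an adjusted p of 0.142 with the block by limma. In MOLM-13, RGS18 was higher with JOA too, at a log2 fold change of 0.36 without overlap (adjusted p = 0.260 with the block by limma). Between the untreated lines 3 were higher and 5 lower in THP-1, where 44.0% of all genes were called. GNG2, a G protein gamma subunit among the 5 lower, was at 2.96 FPKM in MOLM-13 and 0.00956 in THP-1. It passed the filter only through MOLM-13. PIK3R5 and ARRB1 had log2 differences of -1.82 and -1.50.

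Complement components were a list of 19 genes, with 7 tested in THP-1 and 5 in MOLM-13 and none called with JOA. CFD, the protease factor D, was by far the highest at 153 to 222 FPKM in the group means. Between the untreated lines 4 of 8 tested were higher in THP-1 and 2 lower, against 44.0% of all genes called, and C2 and SERPING1 passed the filter only through THP-1. C2 was at 3.82 ± 1.45 FPKM in THP-1 control and 0.0126 ± 0.0109 in MOLM-13 control (SD, n = 3), and C3, the source of C3a and C3b, was at 4.98 ± 2.82 and 0.355 ± 0.0383. The inhibitor SERPING1 was at 0.853 in THP-1 control and listed at 0 in MOLM-13 control, while CFP was lower in THP-1.

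**Figure D4:**
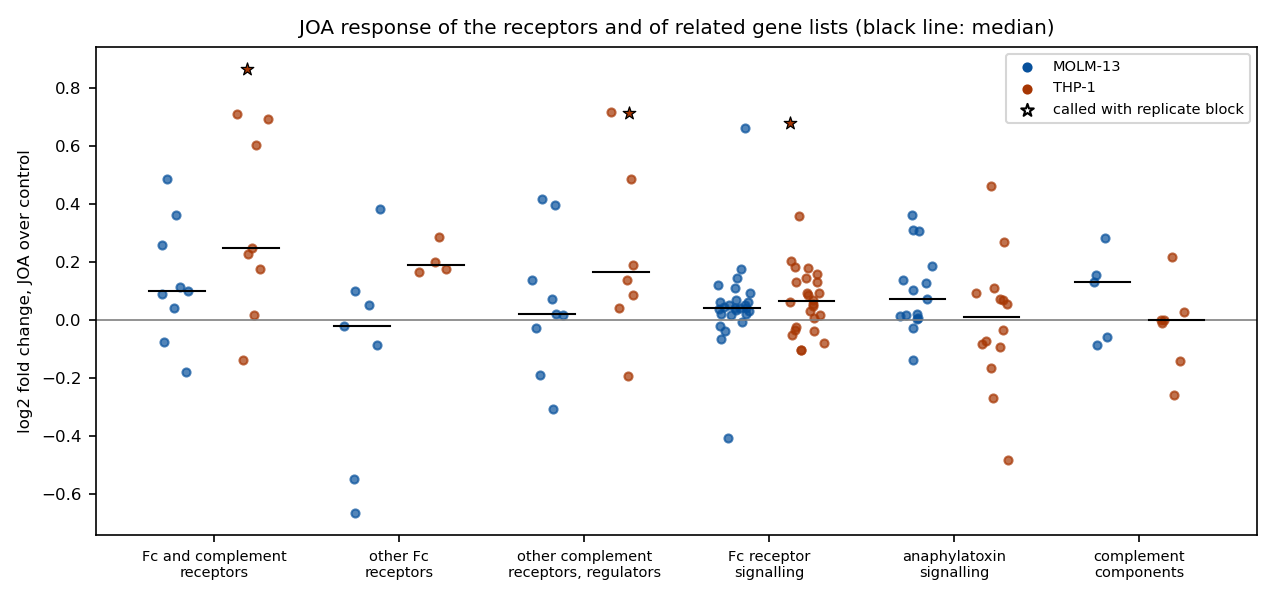
Log2 fold change of JOA over control (vertical axis, log2 of FPKM + 0.1) for each tested gene of the receptors and of 5 related lists, for each cell line, with the list median as a black line. Stars are genes called with the replicate block, which are FCER2, ITGAM and FGR in THP-1 cells.

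Markers of other cells were read beside the receptors, since B cells express FCER2, FCGR2B and FCMR. Of 6 B cell markers, CD79B alone reached 1 FPKM, at 8.75 in THP-1 control and 8.83 with JOA, while MS4A1 (CD20) was listed at 0 in all control libraries of both lines. Their summed FPKM ranged from 9.56 to 11.2 in THP-1 control and from 8.96 to 10.4 with JOA, where FCER2 was higher. CD79A (0.760 and 0.476 FPKM) and PAX5 (0.594 and 0.363) were lower with JOA without overlap, with adjusted p-values of 0.126 and 0.0585 with the block by limma. In MOLM-13 the sum ranged from 0.278 to 0.538 in control and from 0.387 to 0.505 with JOA. Of 6 mast cell and basophil markers none reached 1 FPKM in any group. Of 7 T cell and NK markers, 3 reached 1 FPKM in MOLM-13 control and 1 in THP-1 control. NKG7, a marker of cytotoxic lymphocytes, was the highest in both, at 27.5 in MOLM-13 control and 4.77 in THP-1 control. CD8A was higher in THP-1 control, at 0.375 against 0.00396, and CD3G and KLRD1 were listed at 0 in every library. Of the 10 myeloid markers in THP-1, 5 had a log2 fold change above 0 and 5 below. With the block, 4 of the 10 had an adjusted p under 0.05 whatever the fold, against 8.06% of all genes. The lysosomal protein CD68 was at 131 FPKM in control and 168 with JOA (adjusted p = 0.0254 with the block by limma). MPO, an enzyme of immature granules, was at 20.2 FPKM in control and 13.1 with JOA, with overlapping groups. Its log2 fold change of -0.64 had an adjusted p of 0.00659 with the block and 0.399 without it by limma. The call of MPO was lost in the blocked fit without the filter. CD33 was at 5.78 in control and 7.09 with JOA (adjusted p = 0.0342) and CD4 at 43.7 and 37.2 (adjusted p = 0.0340, both with the block by limma), each without overlap and under the fold threshold. In MOLM-13, 9 of the 10 myeloid markers had a log2 fold change above 0, against 52.4% of all genes, and none was called with or without the block. There 3 of the 10 did not overlap, against 9.65% of all genes. These were CD68, CSF3R and CD33, all higher with JOA, at log2 fold changes of 0.38, 0.34 and 0.14. Whether these changes have a part in those of the receptors was not tested.

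For each member above 0.1 FPKM in a line, the 3 genes with the most similar profile over the 6 libraries of that line were found by Pearson correlation of log2(FPKM + 0.1), among 9681 genes in MOLM-13 and 10092 in THP-1 with a mean of at least 1. With 6 points and so many candidates, high values arise readily, and the libraries share treatment and replicate number. For FCER2 they were GTF2F2, ABCA2 and NCOA3 in THP-1 (0.989 to 0.998) and KLF2, KIF13B and TTC17 in MOLM-13 (0.988 to 0.990). For FCER1G they were TMEM50B, USB1 and BABAM1 in THP-1, and CDKN2C, BLVRB and TNS3 in MOLM-13. Those of FCGR1A were NINJ1, TMEM87B and FAM133B in THP-1, and PLTP, PRICKLE1 and CHP1 in MOLM-13. FCAR was followed by FBXW2, HGS and RANBP9 in THP-1, and by WDR27, BORCS7 and C6orf136 in MOLM-13. No gene was shared by the lines for any member, nor by any pair of members.

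The remaining members gave similar lists. FCGR2A had COG8, MVB12B and HIST1H1C in THP-1 and, among its 3 in MOLM-13, VPS26C and TAF7. FCGRT had CIAO1, NINJ2 and the lysosomal granulin precursor GRN in THP-1, and CAPN3, TNFSF13B and the lysosomal enzyme MAN2B1 in MOLM-13. C3AR1 had RGS16, BTF3L4 and POU4F1 in THP-1, and LOC100507507, BCL10 and MAP4K5 in MOLM-13. The last complement receptor, C5AR1, had CRLS1, ZDHHC5 and NDFIP1 in THP-1, and UBALD2, NEMP2 and MAP2K5 in MOLM-13. CR1, above 0.1 FPKM in THP-1 only, had ZNF85, NCF4 and ZC3H10, and FCGR2B, above it in MOLM-13 only, had CHMP2B, ZNF277 and NOA1.

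Between members, the profiles over the 6 libraries of a line were compared as a description. In THP-1 the highest correlation was that of FCER2 and FCGR1A (r = 0.890), followed by FCGRT and C5AR1 (0.874), while FCGR2A ran against C3AR1 (-0.889) and FCGRT (-0.784). In MOLM-13 the highest were FCGR2B with C5AR1 (0.901) and FCER2 with FCGR2A (0.869). The pair of FCER2 and FCGR1A stood at 0.150 there. FCER1G and FCGR1A had an r of 0.543 in THP-1 and 0.781 in MOLM-13.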

How the data were processed

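The authors deposited FPKM values per gene for 12 libraries, made from paired-end reads of 150 bp and stranded mRNA libraries. The submitters' processing notes name the build hg38 and the tools Trimmomatic, HISAT2, Cufflinks and HTSeq, without versions; the annotation is not given in the sources used here. The authors used DESeq, which needs counts and was not run. FPKM depends on gene models and on how reads of near-identical genes are assigned.

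Here log2(FPKM + 0.1) was fitted with limma 3.58.1 in R 4.3.3 (eBayes with trend) on the groups compared, over genes with a mean of at least 0.1 FPKM, with Benjamini-Hochberg adjustment over all of them. Calls needed an adjusted p under 0.05 together with a log2 fold change of 0.58 or more in size, and the interaction needed the adjusted p alone. Adjusted p-values in the text are from these fits. A fold change on this scale understates that of low genes. The members and gene lists were chosen with earlier results of these data known. Named are all members, genes called in a list, those of each list with the largest changes or highest levels, and the 3 most similar genes per member. CD46, CD59, LAT2, SYK, RGS18 and GRK6 were named for an adjusted p under 0.05 with the block, after their values were seen. The markers CD33, CD4, CD68, CD79A, CD8A, CD3G, CSF3R, KLRD1, MPO, NKG7 and PAX5 were named for their values, also after these were seen.

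Replicate numbers come from the sample titles. Same-numbered control and JOA libraries deviated together from their groups, with correlations of 0.264 to 0.398 in MOLM-13 and 0.139 to 0.319 in THP-1, against at most 0.0168 and -0.0280 between different numbers, so the fit with the replicate number as a block is given beside results that it changes. With 3 libraries against 3, an exact permutation test of a single gene cannot go below p = 0.1. The procedure was run on simulated data with unlinked libraries and with changes placed only in well-expressed genes. That run cannot show how the block treats linked replicates or how changes of low receptors are found. Alternatives covered the pseudocount, filter, scaling, trend, block, joint fit, threshold and each library left out. Promoters are from RefSeq (GRCh38.p14) and were searched with Python 3.11.15. The table held 27 gene names turned into dates, which were kept and are not members, and 3488 genes at 0. Some genes that the rule for named genes reaches are not reported here.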

Additional observations from a re-analysis of the deposited data

How the results depend on the processing

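Depth is unknown, so counting error could not be set against the low values of CR1, FCGR2B and C5AR1, and the 3 libraries per group limit each comparison. Gene counts in THP-1, 7 higher and 10 lower with JOA, were 2 and 6 with a pseudocount of 1, 0 and 0 without the filter, 1 and 0 without the trend, 24 and 32 in a joint fit of the 12 libraries, and 81 and 80 with the replicate block. On the adjusted p alone 24 were higher. With the block and no filter, chosen after seeing the data, both were 0. Leaving out a library gave 0 to 0 higher and 0 to 1 lower. The cause was not tested. The block called 1 receptor, 1 other complement receptor gene, 1 Fc signalling gene and the marker MPO in THP-1, and changed no other call of a receptor or of a list in a JOA comparison.

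In MOLM-13, 1 gene was higher in the joint fit and 1 lower without the filter, against 0, and the receptors without overlap, 2 with CR1, numbered 2 to 4 with a library left out. Between the untreated lines, 3157 genes were higher and 2402 lower. On the adjusted p alone these were 4931 and 4069, and 1898 were higher at a mean of at least 1 FPKM, where fewer genes were tested. Receptors past the threshold numbered 5 as reported, 3 with a pseudocount of 1 and 4 to 6 with a library left out. Same-numbered controls of the lines correlated at 0.0698 to 0.131, against at most 0.0152 between different numbers. This was weaker than between control and JOA libraries of a line. A fit with the replicate number as a block left 5 receptors called. The interaction had 0 genes, against 1 higher and 2 lower without the filter, 3 and 3 with the block, and 1 lower with a pseudocount of 1, with TPM or with median-ratio size factors.

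The sign of a log2 fold change turned for FCGR2A in THP-1 with median-ratio size factors (-0.019) and for FCGR2B in MOLM-13 with a pseudocount of 1 (-0.0014). With a library left out it ranged in THP-1 from -0.087 to 0.16 for FCGR2A, from -0.0057 to 0.36 for FCGRT and from -0.54 to 0.082 for C3AR1. In MOLM-13 it ranged from -0.069 to 0.50 for FCAR, -0.26 to 0.39 for FCER1G, -0.35 to 0.35 for FCGR2B, -0.21 to 0.0041 for C3AR1 and -0.78 to 0.49 for C5AR1. Between the lines it ranged from -0.22 to 0.47 for FCER2. The interaction ranged from -0.15 to 0.50 for FCER1G, -0.18 to 0.068 for FCGR2A, -0.39 to 0.31 for FCGR2B and -0.46 to 0.16 for C3AR1. None of these was called as reported.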
